A study of Mus musculus and Rattus norvegicus with 37 samples.

Results

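De novo lipogenesis, the synthesis of fatty acids from acetyl-CoA, was followed through 10 genes measured in liver: Acss2, Acly, Acaca, Acacb, Fasn, Elovl6, Thrsp, Pklr, Me1 and Mid1ip1. They were found by gene name among 47929 uniquely named entries of the mouse tables and 28026 of the rat tables, and all 10 were listed in each of the 4 tables. In mice, bulk liver RNA was sequenced 7 days after 1 subcutaneous injection of saline or of LNA29, a mixture of locked nucleic acid inhibitors against miR-29a-3p and miR-29bc-3p at 20 mg/kg each. The first mouse table held female C57BL/6J WT mice of 9 to 11 weeks and floxed mice of 15 to 20 weeks (8 LNA29, of which 4 were WT and 4 floxed, and 5 saline, of which 3 were WT and 2 floxed). The second held 4 LNA29 and 4 saline mice labelled SIRT1KO (L-Sirt1 KO), littermates of the floxed mice with hepatocyte deletion of Sirt1. The authors left out 1 saline-treated floxed mouse. The third table held 4 Zucker Fatty rats (ZFR), which are obese because their leptin receptor is mutated, and 4 Zucker Lean rats (ZLR), all 5.5 months old. The fourth held 3-month-old Zucker Fatty rats given daily intraperitoneal BT2, an inhibitor of the kinase of the branched-chain α-ketoacid dehydrogenase, at 20 mg/kg (4 rats) or vehicle (4 rats) for 1 week.

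In this pathway the liver turns surplus carbohydrate and acetate into palmitate and longer fatty acids. Acly makes cytosolic acetyl-CoA from citrate and Acss2 makes it from acetate, Acaca and Acacb carboxylate it to malonyl-CoA, Fasn builds palmitate, and Elovl6 lengthens palmitate to stearate. Pklr, the liver pyruvate kinase, feeds carbon from sugar, and Me1, malic enzyme, supplies NADPH. Thrsp (Spot 14) and its paralogue Mid1ip1 are small regulatory proteins, the latter known to promote the polymerization of acetyl-CoA carboxylase. Insulin through SREBP-1c and glucose through ChREBP are known to raise the transcription of these genes after feeding.

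The sequences of the targeted miRNAs are shown because LNA29 was designed against them, with the seed (bases 2 to 8) in capitals, as given by RefSeq for GRCm38.p6. All 3 share 1 seed.
mmu-miR-29a-3p: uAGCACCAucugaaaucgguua
mmu-miR-29b-3p: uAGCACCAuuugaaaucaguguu
mmu-miR-29c-3p: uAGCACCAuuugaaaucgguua
In mm10, miR-29a-3p is read from the minus strand at chr6:31062673-31062694. One copy of miR-29b-3p lies beside it at chr6:31063025-31063047, and the other copy lies on the plus strand at chr1:195037091-195037113, near miR-29c-3p at chr1:195037600-195037621. The letters that pair with the seed, TGGTGCT, were searched in the longest annotated 3′ UTR of each member. None of the 10 members held them in UTRs of 597 to 5005 bases, against 13% of 21004 genes with an annotated 3′ UTR. At that share, finding none among 10 members says little. The same search found 5 matches in Dnmt3a and 1 each in Col1a1, Col3a1 and Dnmt3b, which are known miR-29 targets.

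The 250 bases before the RefSeq transcription start of Fasn and Acly (GRCm38, both on the minus strand) are printed because these genes stand for the synthase and for acetyl-CoA supply, and capitals mark the promoter motifs found in them. In Fasn the capitals are CCAAT on either strand, starting 90, 62 and 59 bases before the start, the last pair overlapping on opposite strands. In Acly they are the GC box GGGCGG on either strand, starting 117, 88, 76 and 27 bases before the start.
Fasn, chr11:120824548-120824797: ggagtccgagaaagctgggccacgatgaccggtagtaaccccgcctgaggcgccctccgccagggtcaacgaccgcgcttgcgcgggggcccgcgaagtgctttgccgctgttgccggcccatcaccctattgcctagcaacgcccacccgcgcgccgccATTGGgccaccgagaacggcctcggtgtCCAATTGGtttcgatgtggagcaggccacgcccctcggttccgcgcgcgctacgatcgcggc
Acly, chr11:100528001-100528250: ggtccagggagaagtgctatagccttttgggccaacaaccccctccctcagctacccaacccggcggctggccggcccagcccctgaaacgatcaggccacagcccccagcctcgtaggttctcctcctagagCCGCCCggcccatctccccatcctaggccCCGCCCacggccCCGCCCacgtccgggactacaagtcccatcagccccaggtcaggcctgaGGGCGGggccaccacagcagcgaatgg
Over the same window at each listed start of the members, 12 windows in all, CCAAT was found for 6 of 10 members and GGGCGG for 4 of 10. A member counted if any of its windows held the motif. The shares of 32851 mouse promoters, 33.8% for CCAAT and 32.7% for GGGCGG, are per single window and not directly comparable. The only CCAAT of Me1 lies in the window at chr9:86687278-86687527 and that of Pklr in the window at chr3:89136373-89136622, each inside the annotated gene. Neither the E-box CACGTG (6.02% of promoters) nor TCACNCCAC, a sterol response element (1.05% of promoters), was found for any member. At such low shares, finding none among 10 members says little. The windows of Acaca (chr11:84195188-84195437), Acacb (chr5:114165268-114165517) and Mid1ip1 (chrX:10717115-10717364) lie inside genes annotated from 84129672, 114146535 and 10715013. Promoters at those first positions were therefore not searched, and the GGGCGG of Mid1ip1 lies inside the gene.

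All values are normalised read counts, that is, estimated counts scaled by the authors within each table, so levels were compared only within a table. The mouse libraries held about 42600000 to 78000000 estimated reads and the rat libraries about 188000 to 58500000, with the shallowest rat values resting on few reads. Hepatocyte markers were abundant throughout, summing to 4294360 to 7414100 normalised read counts in each WT or floxed library. The leptin gene Lep was listed at 0 in all 13 WT and floxed libraries, and the adipocyte marker sum was 327 to 782. In libraries labelled SIRT1KO, Lep was not at 0 throughout. There the adipocyte marker sum was 411 to 1085 after LNA29 and 364 to 2593 after saline, and its part in the member values was not tested. Sirt1 did not separate the libraries labelled SIRT1KO from the others (586 ± 30.6 in saline libraries labelled SIRT1KO, SD, n = 4, and 591 ± 81.2 in WT/floxed saline libraries, n = 5). Gene-level counts include exons that a partial deletion leaves in place, so Sirt1 does not check these labels. In whole liver, fewer cells of a type and less RNA per cell cannot be told apart.

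Per kilobase of annotated exon, the members of the saline WT and floxed mice spanned a wide range. Thrsp was highest with 7997 ± 2244 normalised read counts per kilobase (SD, n = 5), and Acss2 followed with 5151 ± 1321. Pklr (3885 ± 1401), Acly (3854 ± 876), Me1 (3817 ± 718) and Fasn (2901 ± 703) came next. Mid1ip1 was at 1875 ± 792, and Elovl6 (995 ± 144), Acacb (822 ± 289) and Acaca (597 ± 152) were lowest. The ranges of neighbouring genes in this order overlapped at every step. Exons of Acss2, Pklr, Me1 and Mid1ip1 overlap exons of antisense genes, so part of their counts may come from the partner.

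LNA29 was compared with saline in WT and floxed mice to see which liver RNAs respond to inhibition of miR-29. All 10 members had lower estimated levels after LNA29, and 5 fell: Thrsp to 32.2% of the saline level (95% interval 18.3% to 56.8%), Elovl6 to 52.5%, Acss2 to 55.9%, Acly to 58.2% and Fasn to 62.3%. A gene was called by 4 criteria: p under 0.05 and adjusted p under 0.2 in limma, mean above 50 and fold change above 1.2. By them, 1.93% of 15811 tested genes were lower. The member median log2 fold change was −0.70, beside a median of 0.00 over all tested genes. The study itself named several of these genes from the same libraries, so the count is not independent evidence of their direction.

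**Figure D1:**
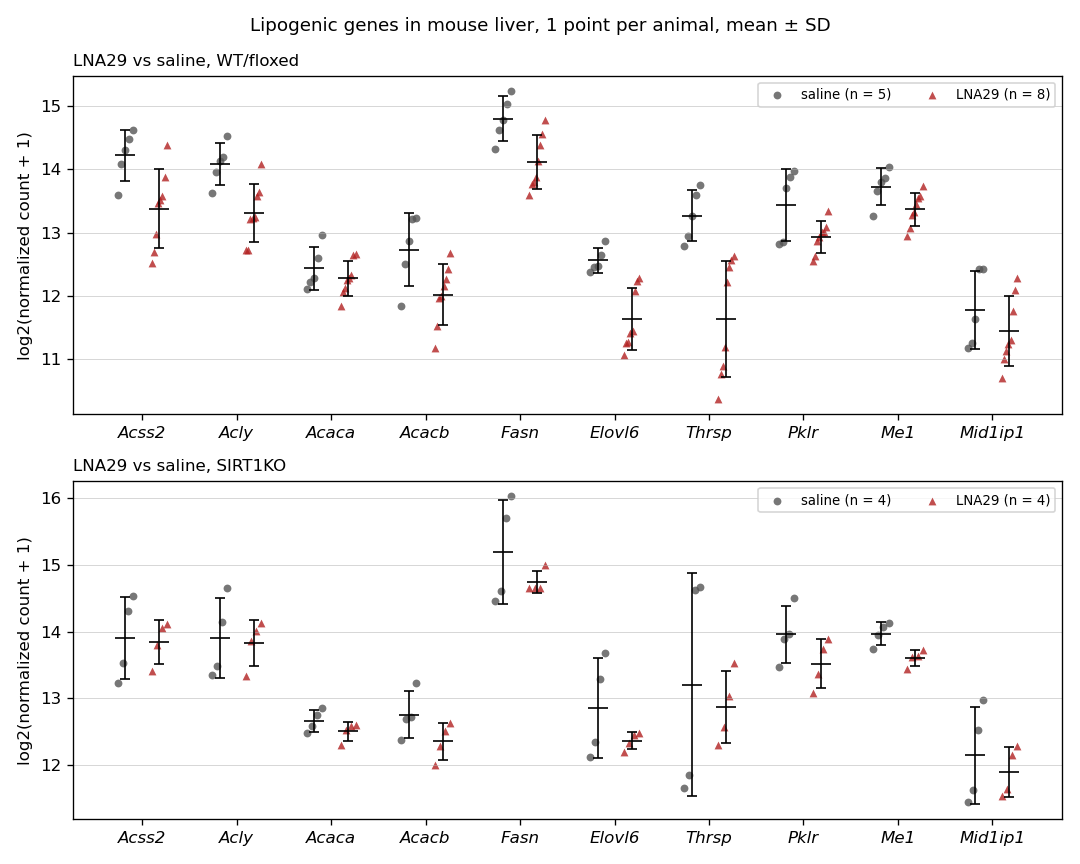
Log2(normalised read count + 1) of the 10 genes in the mouse libraries, 1 point per animal sorted by value, with the group mean ± SD. Elovl6 and Thrsp are the genes whose LNA29 values all lie below the saline values in WT and floxed mice, while saline mice labelled SIRT1KO spread widely for Thrsp, Fasn and Elovl6.

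For Thrsp, the saline mice had normalised read counts of 9863, 13854, 7902, 7109 and 12332 (#1 to #5, of which #2 and #5 were floxed), and the LNA29 mice ranged from 1327 to 6326 with a median of 3555. No LNA29 mouse reached the lowest saline mouse, and the log2 fold change was −1.63 ± 0.38 (SE; adjusted p = 0.0509; exact permutation p = 0.00544). Elovl6 behaved similarly, with saline values of 6407, 5320, 7510, 5685 and 5605 and LNA29 values of 2143 to 5008 (median 2765). Its log2 fold change was −0.93 ± 0.21 (adjusted p = 0.0392; exact permutation p = 0.00233), and the groups again did not overlap. Across all tested genes, 0.569% had non-overlapping groups with LNA29 lower. Both genes kept their calls whichever of the 13 libraries was left out.

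Fasn, the synthase itself, overlapped between groups. Its saline values were 25246, 38489, 28091, 20398 and 33551, and its LNA29 values ran from 12381 to 28284 with a median of 16472. The highest LNA29 mice thus reached the saline range, and the log2 fold change was −0.68 ± 0.20 (adjusted p = 0.132; exact permutation p = 0.0171). Both floxed saline mice were above all 3 WT saline mice for Fasn, a description with no test.

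Both acetyl-CoA suppliers fell. Acly was at 17989, 18738, 23622, 15856 and 12636 after saline and at 6743 to 17309 (median 9687) after LNA29, with a log2 fold change of −0.78 ± 0.21 (adjusted p = 0.0925; exact permutation p = 0.0124). Acss2, which uses acetate, was at 20320, 22894, 25332, 17472 and 12323 after saline and at 5878 to 21396 (median 11577) after LNA29. Its log2 fold change was −0.84 ± 0.27 (adjusted p = 0.172; exact permutation p = 0.0249), and the highest LNA29 mice lay within the saline range. Without 1 library, the call was lost for Acss2 in 9 of 13 fits, for Fasn in 6 and for Acly in 1.

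The remaining 5 members did not pass all criteria. Acacb, the mitochondrial carboxylase isoform, was at 61.1% of saline (log2 fold change −0.71 ± 0.26; adjusted p = 0.230), Pklr at 70.0% (−0.51 ± 0.20; adjusted p = 0.270) and Me1 at 77.9% (−0.36 ± 0.14; adjusted p = 0.279). For Acaca, the cytosolic carboxylase, the interval ran from 71.1% to 113% of saline (adjusted p = 0.738), and for Mid1ip1 from 51.8% to 121% (adjusted p = 0.684). In saline mice, Pklr was at 7362 and 7212 in the floxed animals and at 13301 to 16141 in the WT animals. The count of 5 was not stable: it was 2 (Elovl6 and Thrsp) without saline #3 and 3 without LNA29 #6, #7 or #8. It was 1 (Pklr) in WT mice alone and 2 (Elovl6 and Thrsp) in floxed mice alone. Of all genes, 3.26% were called in either direction without saline #3, and 2.57%, 2.8% and 2.41% without LNA29 #6, #7 and #8. The share was 0.555% in WT mice alone and 5.35% in floxed mice alone. With background (WT or floxed) as a covariate, Acacb and Pklr were also called, making 7 members, and the share of all genes called in either direction was 6.25% instead of 4.35%.

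**Figure D2:**
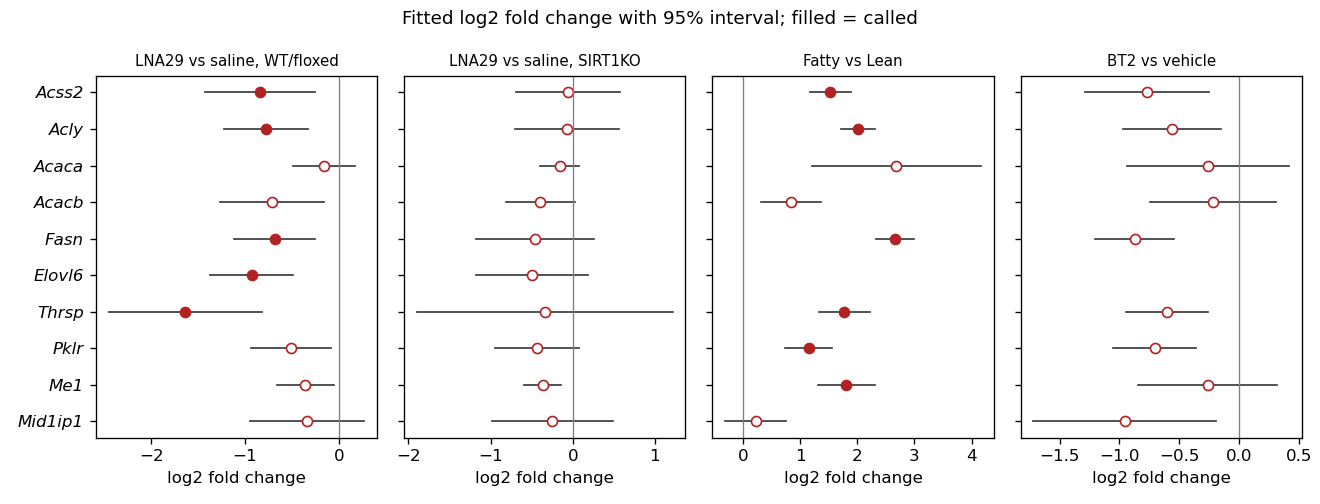
Log2 fold change of each gene (x axis) with its 95% interval in the 4 comparisons, where filled points passed the call rule and the vertical line marks 0. LNA29 estimates are negative for all 10 genes in both mouse tables, Fatty against Lean estimates are positive for all 9 tested genes, and BT2 estimates are negative for all 9.

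Averaging the log2 values of the 10 members, each relative to the saline mean, gave −0.22 to 0.20 in the saline mice and −1.21 to −0.27 in the LNA29 mice (mean −0.69, SD 0.38), so the groups did not overlap. LNA29 #6 (−1.21) and #2 (−1.16) were lowest, and #4 (−0.27) and #5 (−0.30) were highest. Counted gene by gene, LNA29 #6 was below every saline mouse for 9 of 10 members and LNA29 #1 for 2 of 10. The clock output gene Dbp was at 47.8 to 1200 in saline mice, with the highest value in saline #5, and at 31.1 to 177 in LNA29 mice, and the fasting gene Igfbp1 at 1826 to 14450 and 1236 to 32168. The part of these genes, which were chosen after their values were seen, in the result was not tested.

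**Figure D3:**
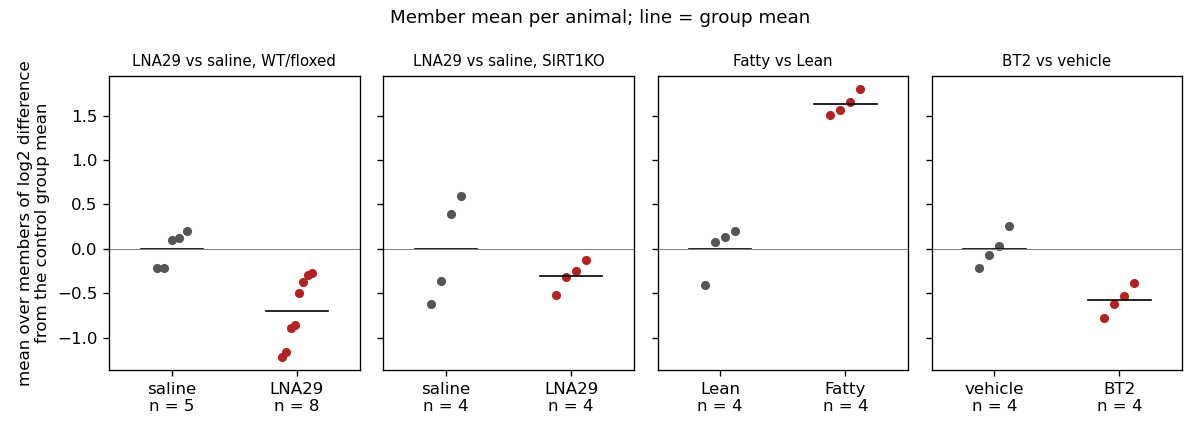
Mean log2 value of the tested members in each library relative to its control group, for the 4 comparisons, with 1 point per animal and a line at the group mean. In WT and floxed mice, LNA29 values (−1.21 to −0.27) lie below saline values (−0.22 to 0.20). In mice labelled SIRT1KO the groups overlap (−0.52 to −0.13 after LNA29 and −0.62 to 0.60 after saline). Fatty rats (1.51 to 1.80) lie above Lean rats (−0.41 to 0.20), and BT2 rats (−0.78 to −0.39) below vehicle rats (−0.22 to 0.26).

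In mice labelled SIRT1KO, the comparison asked whether hepatocyte Sirt1 is needed for the response. All 10 estimates were again negative, with a median of −0.35 beside −0.00 for all genes, but none of the members passed the 4 criteria, which called 0.68% of 15885 genes as lower. Me1, at 77.5% of saline, was the member closest to the threshold. It was at 15838, 17137, 17826 and 13702 in saline mice and at 11115, 12728, 12528 and 13523 in LNA29 mice. These groups did not overlap (−0.37 ± 0.10; p = 0.00530 and adjusted p = 0.218; exact permutation p = 0.0286, the smallest that 4 against 4 allow). Of all genes, 3.3% had non-overlapping groups with LNA29 lower, and 4.9% were lower at an unadjusted p under 0.05, which 1 of 10 members met.

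The saline mice labelled SIRT1KO fell far apart for Thrsp, at 25394 and 26002 in #1 and #3 and at 3697 and 3220 in #2 and #4, whereas the LNA29 mice were at 6095, 5039, 11851 and 8408. The interval of Thrsp accordingly ran from 26.8% to 233% of saline (adjusted p = 0.887). Fasn fell into the same high and low pairs of saline mice, with 66972, 24896, 53282 and 22578, against 25849, 25925, 32659 and 25784 after LNA29 (−0.46; adjusted p = 0.644). Elovl6 was at 13154, 5198, 9993 and 4423 after saline and at 5113, 4682, 5716 and 5599 after LNA29 (−0.49; adjusted p = 0.594). For Fasn and Elovl6, LNA29 mice thus lay near the lower pair of saline mice.

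Both acetyl-CoA suppliers had estimates near the saline level, with wide intervals. Acss2 was at 96.0% of saline (interval 61.9% to 149%; adjusted p = 0.955) and Acly at 95.1% (61.3% to 147%; adjusted p = 0.943). Acacb was at 76.0%, Pklr at 73.8%, Mid1ip1 at 84.3% and Acaca at 89.5% of saline, with adjusted p of 0.483 to 0.815. Over all members, the mean log2 value was −0.62 to 0.60 (SD 0.58) in saline and −0.52 to −0.13 (SD 0.16) in LNA29 mice. Saline #3, one of the high pair, held Dbp at 7449, whereas the other saline mice were at 146 to 480 and the LNA29 mice at 49 to 87. Without saline #3 the member median was −0.17, with 6 members lower and 4 higher. Without saline #4 it was −0.50 and Me1 passed the criteria, as did 0.837% of all genes. Igfbp1 was higher after LNA29 (10631 to 19309 against 5224 to 7286; 1.19 on the log2 scale; adjusted p = 0.0603), and its part and that of Dbp in these values were not tested.

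The difference between the LNA29 responses was fitted as an interaction over both tables, which were normalised separately. No member passed an adjusted p under 0.2, which 0.0449% of 15601 genes did, and no member had an unadjusted p under 0.05, which 9.14% of genes had. The largest estimates were those of Thrsp (1.29 ± 0.80; 95% interval −0.36 to 2.95; adjusted p = 0.652), Acss2 (0.78 ± 0.44; −0.14 to 1.70; adjusted p = 0.616) and Acly (0.71 ± 0.37; adjusted p = 0.587), each less negative in mice labelled SIRT1KO. These intervals leave room for no difference and for one as large as the WT/floxed response itself. With sample quality weights, which give variable libraries less influence, these 3 members passed, as did 7.82% of all genes.

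Zucker Fatty rats had higher levels of most lipogenic genes than Zucker Lean rats, and 6 of the 9 tested members rose. The largest were Fasn (6.32-fold, 95% interval 5.04 to 7.93), Acly (4.03-fold), Me1 (3.49-fold) and Thrsp (3.41-fold), followed by Acss2 (2.88-fold) and Pklr (2.21-fold). At an adjusted p under 0.05, 1.8% of 8633 genes were called higher. The member median was 1.77 on the log2 scale, beside 0.07 for all genes. Elovl6 was not tested because it was listed at 0 in all Lean rats and at no more than 0.837 in Fatty rats.

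**Figure D4:**
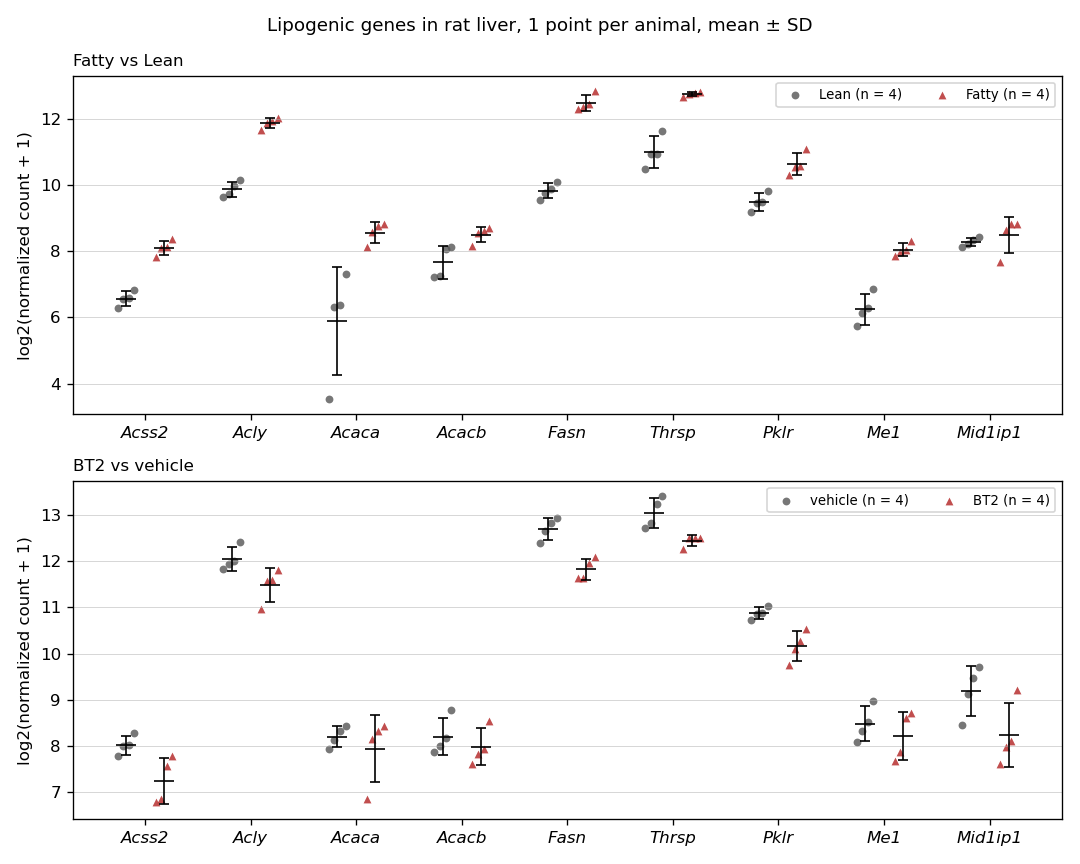
Log2(normalised read count + 1) of the 9 tested genes in the rat libraries, 1 point per animal sorted by value, with the group mean ± SD. Fatty values lie above Lean values for 8 of 9 tested genes, and BT2 values lie below vehicle values for Acly, Fasn, Thrsp and Pklr.

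Fasn was at 1095, 753, 864 and 940 in Lean rats and at 7295, 5557, 5074 and 5216 in Fatty rats, with no overlap (2.66 ± 0.15; adjusted p = 1.45e-05; exact permutation p = 0.0286). Acly was at 841, 1131, 1013 and 795 in Lean and 3958, 3766, 4159 and 3261 in Fatty rats (2.01 ± 0.13; adjusted p = 3.23e-05). Thrsp was at 3175, 1961, 1959 and 1420 in Lean and at 7264, 6540, 7080 and 6944 in Fatty rats (1.77 ± 0.20; adjusted p = 0.00119). In each of these genes, every Fatty rat was above every Lean rat, as was the case for 7.8% of all genes and 8 of 9 members.

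Me1, the NADPH source, was lowly counted, at 76.6, 115, 51.9 and 68.6 in Lean rats and 252, 232, 261 and 318 in Fatty rats (1.81 ± 0.22; adjusted p = 0.00202). The lowest Lean value rests on 4.93 estimated reads. Acss2 was at 77.3, 113, 94.8 and 94.0 in Lean and 327, 274, 276 and 224 in Fatty rats (1.53 ± 0.16; adjusted p = 0.000721). Pklr was at 910, 716, 580 and 706 in Lean and 2196, 1274, 1538 and 1486 in Fatty rats (1.14 ± 0.18; adjusted p = 0.00692). These 3 genes also showed no overlap, and all 6 called members kept their calls whichever library was left out.

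Among the carboxylases, Acaca was at 78.0, 82.2, 10.6 and 157 in Lean rats and at 380, 430, 449 and 277 in Fatty rats, apart but short of the threshold (2.68 ± 0.66; adjusted p = 0.0548). Its value of 10.6 in Lean #3 is 1 estimated read, and without that library it passed (1.90; adjusted p = 0.00619). Acacb was at 152, 266, 147 and 281 in Lean and 372, 414, 285 and 392 in Fatty rats (0.84 ± 0.24; adjusted p = 0.0895). Mid1ip1 overlapped, at 279, 324, 295 and 345 in Lean and 450, 204, 453 and 401 in Fatty rats (0.21 ± 0.24; adjusted p = 0.670). The 2 run codes in the library names split each rat group evenly. Within run code 9263, 5 members were called, beside 2.78% of all genes, and within 9264, which held the 2 shallowest Lean libraries, Fasn was, beside 0.151%. Dbp was at 0 to 28.0 in Lean and at 109 to 272 in Fatty rats, and 6 of 11 tested clock genes were called, 4 higher and 2 lower. Their part in the result was not tested.

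BT2 was compared with vehicle in Fatty rats to see how the liver responds when branched-chain amino acid oxidation is promoted. All 9 tested members had lower estimates after BT2, with a member median of −0.60 beside 0.01 for all genes, but none was called, as 0% of 8405 genes were at an adjusted p under 0.05 in limma. With voom weights 1 gene of the table was called, which was not a member. At an unadjusted p under 0.05, 6 of 9 members were lower (Fasn, Pklr, Thrsp, Acss2, Acly and Mid1ip1), beside 2% of all genes.

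Fasn was at 5373, 6398, 7867 and 7238 in vehicle rats and at 4349, 3193, 3957 and 3176 in BT2 rats, 54.6% of vehicle (−0.87 ± 0.15; adjusted p = 0.510; exact permutation p = 0.0286). Thrsp was at 6698, 7250, 10807 and 9685 and at 5832, 5760, 5792 and 4906 (−0.60 ± 0.16). Pklr was at 1858, 2097, 1696 and 1889 and at 1488, 1099.8, 864 and 1239 (−0.71 ± 0.16). The other members had adjusted p of 0.898 to 0.919. These 3 genes and Acly had no overlap between groups (exact permutation p = 0.0286 for each), as did 1.44% of all genes with BT2 lower.

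Acly was at 3913, 3637, 5457 and 4126 in vehicle and 3096, 3038, 1998 and 3590 in BT2 rats (−0.56 ± 0.19). Acss2 overlapped by 1 BT2 rat, at 256, 218, 308 and 258 and at 189, 219, 110 and 114 (−0.77 ± 0.23; exact permutation p = 0.0571), and Mid1ip1 overlapped, at 348, 707, 558 and 836 and at 274, 251, 596 and 196 (−0.96 ± 0.34; exact permutation p = 0.0857). Acaca, Acacb and Me1 were at 83.5%, 86.0% and 83.3% of vehicle, with intervals that reached above 100%. Elovl6 was listed at 0 to 31.0 and was not tested. Dbp was at 55.2 to 316 in vehicle and 7.60 to 73.2 in BT2 rats, and its part was not tested. The member median was −0.27 within run code 9263 and −0.83 within 9264, where Fasn and Thrsp were called among 0.312% of genes.

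Coordination of the members across animals was described by correlating log2 values after removal of group means. In WT and floxed mice the median r over 45 pairs of members was 0.54, 38 pairs were positive and 24 were above 0.5, beside a median of 0.01 and 11.6% of pairs above 0.5 when members were paired with other genes. The closest pair was Acss2 and Acly (r = 0.94) and the most opposed was Pklr and Mid1ip1 (r = −0.67). When the WT and floxed means were removed as well, the median r was 0.71 with 44 of 45 pairs positive. All pairs share the same 13 animals and are not independent.

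**Figure D5:**
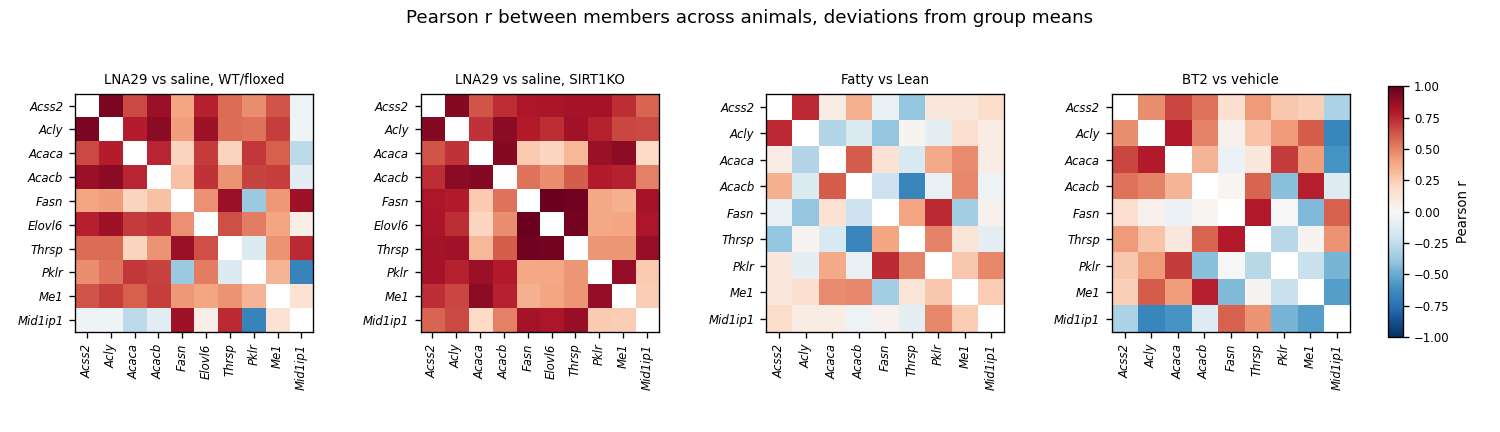
Pearson r of log2 values between members across animals after removal of group means, for the 4 tables, from blue (negative) to red (positive). Pairs are mostly positive in WT and floxed mice (median 0.54) and in mice labelled SIRT1KO (0.74), and mixed in rats (0.09 and 0.25).

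In mice labelled SIRT1KO all 45 pairs were positive (median 0.74), from 0.20 for Acaca and Mid1ip1 to 0.98 for Fasn and Elovl6, over 8 animals, and 32 were above 0.5, beside 16.1% of pairs with other genes. In rats the median was 0.09 over 36 pairs in the Fatty and Lean table and 0.25 in the BT2 table, with 3 and 9 pairs above 0.5, beside 14.95% and 11.8% of pairs with other genes. The shallow rat libraries add counting error to each value, and its part in these lower values was not tested.

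Fasn was used as the anchor of 34 relations. In WT and floxed mice it varied with Thrsp (r = 0.86, permutation p = 0.00062, adjusted p = 0.0160; rho = 0.90) and with Mid1ip1 (r = 0.85, permutation p = 0.00094, adjusted p = 0.0160; rho = 0.79), over 13 animals. Without the 2 animals farthest from the median of Fasn, r was 0.85 and 0.88. Thrsp ranked 9 and Mid1ip1 17 among 15810 genes by r with Fasn. These relations and permutations took only the treatment means out, and floxed saline mice had higher Fasn and Mid1ip1 and lower Pklr than WT saline mice. A choice made after seeing the data was to remove background means as well and to permute within each treatment and background. Fasn then varied with Elovl6 (r = 0.88, exact permutation p = 0.000434, adjusted p = 0.00391 over these 9 relations) and with Thrsp (r = 0.91, exact permutation p = 0.00897, adjusted p = 0.0143). Acss2, Acly, Acacb and Me1 also passed, with r of 0.71 to 0.75 and an adjusted permutation p of 0.0143 for each. Acaca did not (r = 0.60, adjusted permutation p = 0.0744). Mid1ip1 no longer passed (r = 0.78, exact permutation p = 0.0553, adjusted p = 0.0711), and r with Pklr turned from −0.37 to 0.33 (exact permutation p = 0.378). In mice labelled SIRT1KO, Fasn had r of 0.98 with Elovl6 and 0.97 with Thrsp (exact permutation p = 0.0208 and adjusted p = 0.142 for each), and in the BT2 table r of 0.80 with Thrsp (exact permutation p = 0.0191, adjusted p = 0.142).

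Outside the members, the genes whose values most resembled the member mean after removal of group means, by mean r over the 4 tables among 7268 genes, were Tlcd1 (0.73), Cers2 (0.70), Nampt (0.68), Paox (0.67) and Slc9a3r1 (0.67). Tlcd1 had r from 0.47 in the Fatty and Lean table to 0.88 in mice labelled SIRT1KO.

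Lists of neighbouring genes were described in the same fits. Supply of citrate, NADPH and sugar had 2 of 14 genes lower in WT and floxed mice, the fructose kinase Khk (−0.38; adjusted p = 0.0561) and Idh1, an NADPH-producing dehydrogenase (−0.33; adjusted p = 0.0861), with a list median of −0.18. In mice labelled SIRT1KO, 2 of 14 genes were lower, among them Pdha1 of pyruvate dehydrogenase (−0.30; adjusted p = 0.148). In Fatty rats, 2 of 12 tested genes were higher, among them Taldo1, a pentose phosphate enzyme (0.78; adjusted p = 0.0467). With BT2 all 12 tested genes had negative estimates, of which none was called. Desaturation and esterification had none of 12 genes called in either mouse table, 9 of 12 estimates being negative in both. In Fatty rats 4 of its 12 genes were higher, led by Pnpla3, a lipid droplet protein (4.00; adjusted p = 6.50e-06), and Scd, the stearoyl-CoA desaturase (3.37; adjusted p = 0.000159). Of the regulators of lipogenesis, none of 10 in mice and none of 9 in rats was called in any comparison.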

How the data were processed

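Liver polyA RNA from 21 mice and 16 rats was sequenced by the authors, who estimated counts with Salmon and normalised them with DESeq2, separately for each of the 4 tables. The deposited signal values are therefore scaled estimated counts, not whole reads: 69.3% to 90.3% of low values were whole multiples of the smallest step (tolerance 0.01). Every column matched a sample, and the columns matching none numbered 0. Groups, backgrounds and run codes came from the labels.

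Tests used limma 3.58.1 (R 4.3.3, data.table version 1.17.8) on log2(value + 1) for genes with a mean of at least 10, with the Benjamini-Hochberg adjustment over all tested genes. The fold changes are on that scale, which understates changes of low genes. Calls in mice needed 4 criteria (p under 0.05, adjusted p under 0.2, mean above 50, fold change above 1.2), and in rats an adjusted p under 0.05. Exact permutation tests were two-sided. Correlations used Python 3.11.15, numpy 2.4.6, pandas 2.3.3 and scipy 1.17.1, and figures matplotlib 3.10.9. The fit was tested on simulated data. P-values rest on the spread between libraries of different animals, which in the shallow rat libraries also includes counting error.

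All 10 members are named, and genes outside them by call or likeness (5 genes). Members and lists, including markers of hepatocytes, adipocytes, macrophages, stellate cells, cholangiocytes and red blood cells, were chosen with earlier results of these data known. Replicate numbers did not pair animals. Alternatives were a pseudocount of 10, no minimum, TMM scaling, voom, sample quality weights, run code or background as a covariate, leaving out each library, and, chosen after seeing the data, fits within each run code and without libraries under 500000 reads. Protein sequences and rat coordinates were not analysed here, and some genes of the neighbouring lists are not reported here.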

Additional observations from a re-analysis of the deposited data

Results flagged for a closer look

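The values of each tested member, and the member mean, were examined within each group of 4, 5 or 8 animals. Of these 84 sets, which share the same animals, 2 held a value far from the others, and chance flags about 1 in 20. Fasn was highest in LNA29 #3 labelled SIRT1KO, at 32659, the other 3 mice lying between 25784 and 25925. That gap was 0.980 of the range. Thrsp was lowest in BT2 #4, at 4906, the other 3 rats lying between 5760 and 5832, a gap of 0.922 of the range.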

How the results depend on the processing

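In WT and floxed mice, 5 members were called as lower, beside 4.35% of all genes called in either direction. The count was 3 with no minimum (1.36% of genes), 8 with sample quality weights (8.27%) and 0 with the replicate block (0.354%). It was 1 in WT mice alone (0.555%), 2 in floxed mice alone (5.35%) and 1 at an adjusted p under 0.05 (1.3%). It was 0 within run codes 8899 (0.481%) and 8901 (0%), and 2 to 7 leaving out 1 library at a time (2.41% to 6.37%). Acaca turned positive in floxed mice alone (0.11) and within 8901 (0.053), and Mid1ip1 within 8900 (0.16), which held 1 saline mouse. In mice labelled SIRT1KO the count of 0, beside 1.87% of all genes, became 0 to 1 leaving out 1 library (0.485% to 2.68%). Run code 8900 could not be fitted there. Weights turned Acss2 (0.19), Acly (0.13) and Thrsp (0.29) positive, and within 8901 (1 LNA29 mouse) Acss2 was 0.24. A lone animal is assumed to vary like the other group, so fits with 1 animal in a group say little of stability. Leaving out 1 library gave Acss2 −0.28 to 0.15, Acly −0.26 to 0.17, Thrsp −0.86 to 0.15 and Mid1ip1 −0.48 to 0.031. For the difference of responses, weights called 3 members, beside 7.82% of all genes, and turned Acaca (0.094) and Me1 (0.14). Pklr was −0.39 with floxed and SIRT1KO mice only, the run code gave Acaca 0.066, Me1 0.00467 and Mid1ip1 −0.014, and the replicate block gave Mid1ip1 −0.14. Leaving out 1 library gave Acaca −0.13 to 0.079, Fasn −0.020 to 0.50, Pklr −0.085 to 0.26, Me1 −0.085 to 0.11 and Mid1ip1 −0.14 to 0.37. In Fatty against Lean rats, 6 members were called, beside 4.25% of all genes in either direction, and within 9264 only Fasn was, beside 0.151%. Leaving out the shallow libraries left 1 Fatty against 2 Lean rats, so only the median is given for that fit. The median of 1.77 was 1.54 with weights, 1.54 without the shallow libraries and 1.48 without those under 500000 reads. It was 1.47 within 9263 and 2.04 within 9264. With BT2, 2 were called within 9264, beside 0.312% of all genes, and the median was −0.27 within 9263 and −0.83 within 9264. Weights gave Acacb 0.014, and within 9263 Acacb was 0.15 and Acaca 0.26, while leaving out 1 library gave Acaca −0.43 to 0.10. Median r was 0.71 after background means, 0.67 in LNA29 mice alone, 0.35 with TMM in Fatty and Lean rats and −0.091 with BT2 after run code means. Among single members, 916 of 1070 alternative values kept direction and side of the threshold, 63 lost the call, 34 gained it and 57 changed sign, and the cause was not tested.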

Other observations

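Cholesterol synthesis, which shares acetyl-CoA with lipogenesis, had none of 16 genes called in WT and floxed mice (14 lower estimates, median −0.18) and none in Fatty against Lean rats (13 higher estimates) or with BT2 (12 lower, median −0.38). Of 8 fasting-response genes, none was called in WT and floxed mice, where 7 had higher estimates (median 0.71), and in mice labelled SIRT1KO Igfbp1 and the glucose-6-phosphatase gene G6pc (0.75; adjusted p = 0.0538) were higher. None of the 7 tested in rats was called in either comparison. Clock genes were not called in either mouse table (0 of 12) or with BT2 (0 of 11). Among those called in Fatty rats were Dbp (5.01; adjusted p = 0.00922) and Per3 (4.30; adjusted p = 0.0186).

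Of cell type markers, the hepatocyte gene Apoa1 was higher after LNA29 in WT and floxed mice (0.51; adjusted p = 0.0312), and the Kupffer cell gene Clec4f was lower in mice labelled SIRT1KO (−0.29; adjusted p = 0.189). In Fatty rats 1 of 6 hepatocyte markers was higher (Tf, 0.44) and 2 were lower, among them Cps1 (−0.58). No tested adipocyte, stellate cell, cholangiocyte or red blood cell marker was called, although none of the red blood cell markers could be tested in Fatty against Lean rats and 1 was tested with BT2. Macrophage markers summed to 7483 to 42112 in LNA29 and 11746 to 19548 in saline WT and floxed mice.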
